A study of Mus musculus with 2 samples.

Results

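The Rtl1-antisense and Meg3-Rian microRNAs of the imprinted Dlk1-Dio3 region were examined in 2 libraries of microRNA sequencing from mouse hindbrain. Both libraries came from strain B6NCrl at embryonic day 15.5, each from a pool of embryos of both sexes, 78 in replicate 1 and 62 in replicate 2. The libraries form 1 group, with no treatment, mutation, other age or other tissue, so the pools can be compared only with each other. Pooling averages over embryos, and variation between single animals is not seen.

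The genes were chosen by symbol and position: Mir493, Mir337, Mir540, Mir665, Mir431, Mir433, Mir127, Mir434, Mir136 and Mir370, in that order on chromosome 12. A row of the count tables was found for 9 of these 10 among 1973 rows in all. The identifier that GENCODE M21 gives to Mir136 has no row in the tables used here. At its place stands a row for ENSMUSG00000070129.1, an identifier that M21 gives, in version 2, to Mir3071 on the other strand of the same hairpin. Which strand version 1 stood for is not given in the sources used here, so the row is called the Mir136/Mir3071 row and is kept out of the sums.

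In this region the protein-coding genes Dlk1, Rtl1 and Dio3 are expressed from the chromosome inherited from the father. The long non-coding RNAs Meg3, Rian and Mirg, the antisense transcript of Rtl1 and the microRNAs are expressed from the maternal chromosome. Rtl1 derives from a retrotransposon, and the microRNAs on its antisense strand are fully complementary to its messenger RNA, which they can direct to cleavage. MicroRNAs of the region are abundant in the nervous system. The reads here carry no information on the parent of origin.

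In M21, on build GRCm38 (mm10), the 9 hairpin genes span 38.1 kb of chromosome 12, from 109580233 to 109618336 on the plus strand. Mir493 starts 8506 nt past the annotated end of Meg3. Mir337, Mir540 and Mir665 follow within 619 nt of one another. These 4 genes lie between Meg3 and Rtl1 and have no annotated host gene on their strand. Mir431, Mir433, Mir127 and Mir434 lie within 4153 nt, all antisense to an exon of Rtl1, whose gene runs from 109589193 to 109600330 on the minus strand and whose coding sequence lies from 109590172 to 109595403. Mir370, from 109618258 to 109618336, lies in an intron of Rian, and the Mir379 to Mir410 cluster begins 90.7 kb farther on.

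Mature sequences from RefSeq (GRCm38.p6) were found for all 10 symbols, with 20 arms. The arms that lie antisense to Rtl1 are printed because this complementarity sets them apart from the other members. Sequences run 5′ to 3′, and capitals mark the seed, bases 2 to 8.
miR-431-5p: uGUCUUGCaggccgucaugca
miR-431-3p: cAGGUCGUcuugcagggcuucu
miR-433-5p: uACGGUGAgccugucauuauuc
miR-433-3p: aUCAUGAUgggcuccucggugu
miR-127-5p: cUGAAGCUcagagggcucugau
miR-127-3p: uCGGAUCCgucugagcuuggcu
miR-434-5p: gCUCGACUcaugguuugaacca
miR-434-3p: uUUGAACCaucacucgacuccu
miR-136-5p: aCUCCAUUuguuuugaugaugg
miR-136-3p: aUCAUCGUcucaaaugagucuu

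Each of these 10 arms had 1 exact complementary site in the Rtl1 transcript (6358 nt), and every site lay in the coding sequence. The site of miR-127-3p, at bases 2642 to 2663 of the transcript, reads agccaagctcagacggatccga. The arms of Mir431 share the stretch GUCUUGCAGG, at bases 2 to 11 of miR-431-5p and 7 to 16 of miR-431-3p, so that it covers the seed of the 5p arm only. A shared stretch of at least 10 nt between the arms of a hairpin occurs in 4 of 677 mouse microRNA genes with 2 arms in RefSeq (0.591%). The arms of Mir434 share the 9 nt uuugaacca. Both pairs were singled out after all hairpins had been searched.

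No seed was shared among the members. Of the 20 arms, 18 had a seed that no other RefSeq mouse microRNA has, against 71.6% of all 1738 mature entries. The exceptions lie outside Rtl1 and are printed for that reason.
miR-540-3p: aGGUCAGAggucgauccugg
miR-370-5p: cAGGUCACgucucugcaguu
The first has the seed of miR-6915-5p, and the second that of miR-1193-3p, whose gene lies in the Mir379 to Mir410 cluster. A full mature sequence of any of the 20 arms occurred on the sense strand of no other M21 transcript. The longest exact stretch that a member's hairpin shared with a microRNA gene at another locus was 14 nt, short of the 20 nt taken as the limit for reads that could be placed at several loci.

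Levels are given as CPM, the gene's own-strand reads scaled by the library's total of such reads over all microRNA genes. There were 3937840 such reads in replicate 1 and 4839647 in replicate 2. A further 35.4% and 34.2% of each library's reads were placed at several loci and belong to no gene. A count of 0 allows up to 3 reads, which is 0.762 and 0.62 CPM, and this limit and all intervals cover counting error only. A count includes both arms of a hairpin. A small RNA read spans the mature microRNA, so levels were not divided by length, and the effect of doing so on the order is given below. In a whole tissue, fewer cells with a microRNA and less of it per cell cannot be told apart.

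The 4 genes antisense to Rtl1 held 83.7% ± 0.499 of the reads of the 9 members (SD, n = 2). Mir127 alone held 47.1% of them in replicate 1 (95% exact Clopper-Pearson interval 46.7 to 47.5) and 46.9% in replicate 2 (46.5 to 47.2). The members together held 1.66% of all own-strand gene reads in each library, with intervals of 1.65 to 1.68 and 1.65 to 1.67. The sum of 65528 reads in replicate 1 and 80497 in replicate 2 was therefore nearly the same share of both libraries, while single members moved within it.

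**Figure D1:**
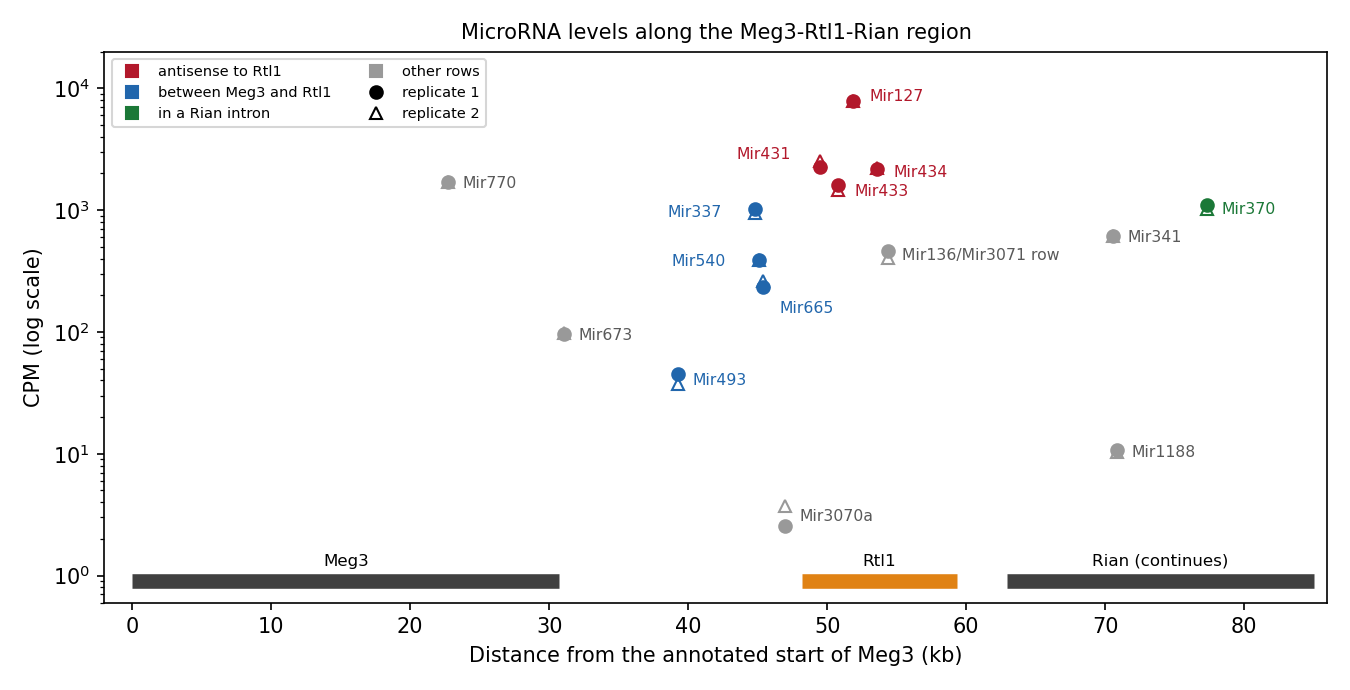
Levels of microRNA rows with at least 10 reads in a library (y, CPM, log scale) against the distance from the annotated start of Meg3 (x, kb), with bars for Meg3, Rtl1 and the first part of Rian. Filled circles are replicate 1 and open triangles replicate 2. The 4 members antisense to Rtl1 (red) sit above the other members, and Mir127 is highest.

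Among the genes antisense to Rtl1, Mir127 (ENSMUSG00000070076.1; 109592846 to 109592915), also studied as a regulator of Bcl6, had 30865 reads in replicate 1 and 37722 in replicate 2. These are 7838 and 7794 CPM, a mean of 7816 ± 30.9 (SD, n = 2), rank 26 of all genes. The rank leaves out reads placed at several loci, so genes with such reads may rank too low. Mir127 stood at nearly the same level in both pools. Mir431 (ENSMUSG00000070080.1; 109590447 to 109590537), known from work on axon regeneration, had 8946 and 12271 reads, or 2272 and 2536 CPM. Replicate 2 was the higher library for Mir431. Mir434 (ENSMUSG00000070133.1; 109594506 to 109594599) had 8501 and 10653 reads, or 2159 and 2201 CPM. Mir433 (ENSMUSG00000070072.1; 109591715 to 109591838) had 6309 and 7021 reads, or 1602 and 1451 CPM. Here replicate 1 was the higher library. In both libraries, each of the 4 stood above every one of the other 5 members.

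Between Meg3 and Rtl1 the levels ran from 37.0 to 1012 CPM. Mir337 (ENSMUSG00000065526.3; 109585789 to 109585885) was the highest of the 4, with 3985 and 4608 reads, or 1012 and 952 CPM. Mir540 (ENSMUSG00000072900.1; 109586080 to 109586146) had 1526 and 1879 reads, or 388 CPM in each library. Mir665 (ENSMUSG00000076313.1; 109586314 to 109586407) had 925 and 1274 reads, or 235 and 263 CPM. Levels fell from Mir337 to Mir540 to Mir665 in both libraries, although the 3 hairpins lie within 619 nt. Mir493 (ENSMUSG00000077025.2; 109580233 to 109580315) was the lowest member, with 178 and 179 reads, or 45.2 and 37.0 CPM. The counts of Mir493 were almost equal while replicate 2 was the deeper library, hence its lower CPM there. In Rian, Mir370 (ENSMUSG00000065433.1), studied in the liver for its effect on Cpt1a and fatty acid oxidation, had 4293 and 4890 reads, or 1090 and 1010 CPM.

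**Figure D2:**
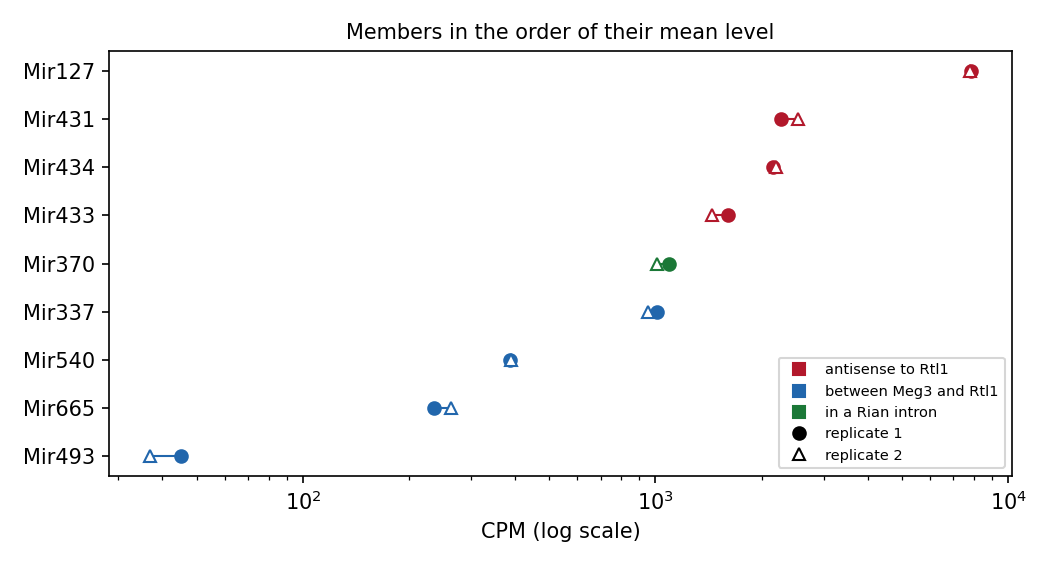
CPM of the 9 members (x, log scale) in the order of their mean (y), with a circle for replicate 1 and a triangle for replicate 2 joined by a line. The ranges of Mir370 and Mir337 overlap, and those of all other neighbours in the order are apart.

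The order of the levels was Mir127, Mir431, Mir434, Mir433, Mir370, Mir337, Mir540, Mir665 and Mir493 in both libraries. Mir127 exceeded Mir493 in CPM by 173-fold in replicate 1 and 211-fold in replicate 2. Of the 8 pairs of neighbours in this order, 7 had ranges that did not overlap between the libraries. The exception was Mir370 over Mir337, with ratios of 1.08 and 1.06. Mir431 over Mir434 was the closest pair in replicate 1, at 1.05, and stood at 1.15 in replicate 2. With reads divided by hairpin length, Mir370 (1329 CPM per 100 nt) moved above Mir433 (1231 CPM per 100 nt), and the other 7 kept their places. For the values of 2 genes in 2 libraries each, the smallest two-sided p of an exact permutation test is 0.33, so no p is given for the order. A bias between sequences that both libraries share would not show in this spread.

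The row at the Mir136 and Mir3071 hairpin had 1824 reads in replicate 1 and 1973 in replicate 2, or 463 and 408 CPM. It had 0 reads on the opposite strand in both libraries, so all reads came from 1 strand of a hairpin that M21 annotates on both. With this row the members' share would be 1.71% in place of 1.66%.

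Reads on the opposite strand were 0 in both libraries for 8 of the 9 members. The upper limit of the 95% exact interval was lowest for Mir127, at 0.0120% and 0.00978% of the reads at its hairpin. For the 4 genes antisense to Rtl1, only fragments of the Rtl1 messenger RNA of small RNA size would be counted there. The 0 reads therefore do not measure that messenger RNA or its cleavage. Mir337, where M21 annotates the hairpin Mir3544 on the minus strand, had 4 opposite reads in replicate 1 and 7 in replicate 2. These are 0.10% (0.0273 to 0.257) and 0.152% (0.0610 to 0.312) of the reads at that hairpin.

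The 2 pools were then compared gene by gene. An exact conditional binomial test followed TMM scaling. Of all rows, 426 had at least 10 reads in 1 or both libraries and were tested, with Benjamini-Hochberg adjustment and a threshold of 0.05. The test sets 1 library against the other, so its p-values measure counting error and not the spread between pools. All 9 members had at least 10 reads in both libraries. The test called 4 of the 9, or 44.4%, where it called 35.9% of all genes tested. A test of counting error calls genes with many reads more readily. The median gene tested had 92.9 CPM and the median member 1050. Of the 234 genes, members included, with a mean CPM within the members' range, the test called 110. The members' count is near these backgrounds. Of the 4 members called, 1 was higher in replicate 2 (15.3% of all genes tested) and 3 were lower (20.7%). None of the 9 differed by 1.5-fold. Over all genes tested, 65 were higher and 88 lower. That split depended on the scaling: TMM factors computed over all 1973 rows gave 78 higher and 69 lower, with 2 members higher and 2 lower, and DESeq2 size factors gave the same 4 counts. The gene set for the TMM factors was chosen after both had been run.

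Mir431 was the member higher in replicate 2, with a log2 ratio of replicate 2 over replicate 1 of 0.14 (95% exact interval 0.10 to 0.18; adjusted p = 1.06e-11, exact binomial test). Mir433 was lower, at -0.16 (-0.21 to -0.11; adjusted p = 1.09e-09, exact binomial test). These hairpins lie 1177 nt apart on the same strand and moved in opposite directions. Relative to Mir433, Mir431 rose by a log2 ratio of 0.30 (exact interval 0.24 to 0.36), a value that does not depend on library scaling. The pair was chosen after its values were seen, and the value has no p.

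Mir370 was lower at -0.13 (-0.19 to -0.07; adjusted p = 0.000136, exact binomial test). Mir337 was lower at -0.10 (-0.17 to -0.04; adjusted p = 0.00306, exact binomial test), a call that was lost with DESeq2 size factors and with TMM factors over all rows (-0.07 with each). The 5 members that did not pass were Mir493 at -0.31 (-0.61 to 0.00), Mir540 at -0.01 (-0.11 to 0.08), Mir665 at 0.15 (0.02 to 0.27), Mir127 at -0.02 (-0.05 to -0.00) and Mir434 at 0.01 (-0.03 to 0.05). The sign of Mir127 turned with DESeq2 size factors (0.0068) and with TMM factors over all rows (0.0062), and that of Mir540 with both of these and with total counts. Mir665 passed at 0.16 with total counts, at 0.18 with DESeq2 size factors and with TMM factors over all rows, and at 0.15 with both strands together. With a minimum of 100 reads, which left 281 genes to adjust over, Mir665 and Mir127 also passed. Then 6 of the 9 members were called, 2 higher and 4 lower, where the exact test called 53.0% of all genes.

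**Figure D3:**
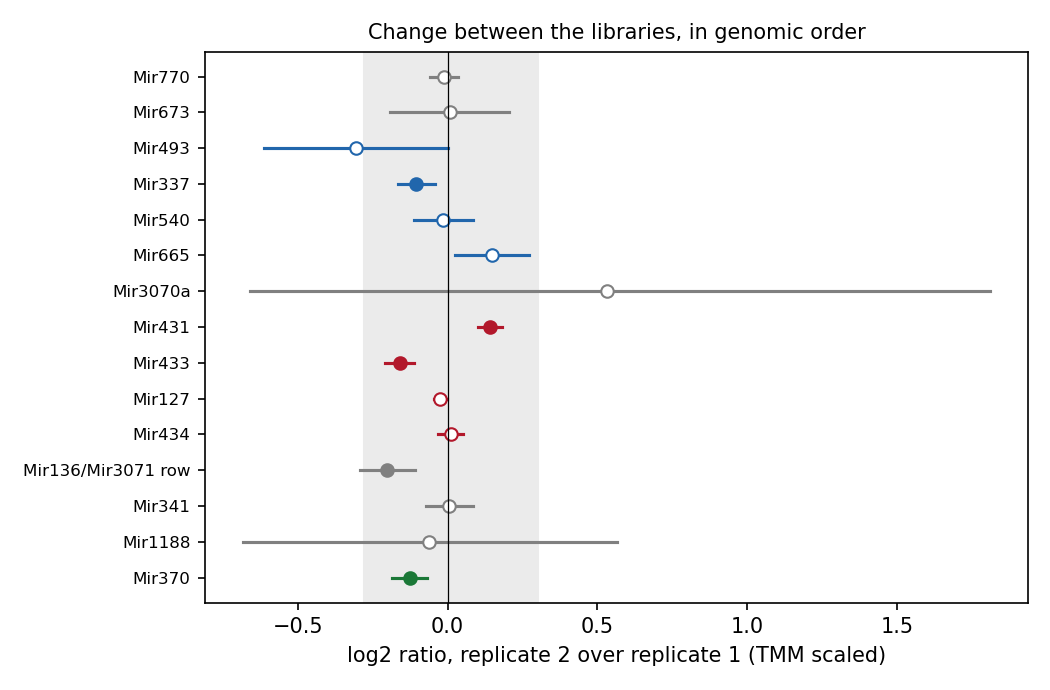
Log2 ratio of replicate 2 over replicate 1 (x) with 95% exact intervals, for members (coloured by location: red antisense to Rtl1, blue between Meg3 and Rtl1, green in Rian) and other rows of the region (grey) in genomic order (y). Filled points passed the test, and the shaded band is the 5th to 95th percentile of the 208 genes whose mean reached 100 CPM. The points of 8 members lie inside the band, and Mir493, with 178 and 179 reads, lies just outside. Its mean of 41.1 CPM is below the band's limit. For the 234 genes within the members' range of mean CPM, the 5th percentile is -0.32, and Mir493 at -0.31 lies inside it.

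The median log2 ratio of the 9 members was -0.02, beside -0.01 for the 426 genes tested, and the members ran from -0.31 to 0.15. The SD of the members' log2 ratios was 0.14, beside 0.23 for the 234 genes, members included, with a mean CPM within the members' range, and 0.18 for the 208 whose mean reached 100 CPM. With a common coefficient of variation of 0.1 put in for all genes, edgeR's exact test called 0 of the 9 members and 1.41% of all genes tested. At that setting 0 members had an unadjusted p under 0.05, beside 32 of the 426 genes, and the smallest, for Mir493, was 0.241 by that exact test. With a coefficient of 0.2 it also called 0 members, with 0 at an unadjusted p under 0.05, and 0% of all genes, with 12 of the 426 at an unadjusted p under 0.05.

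**Figure D4:**
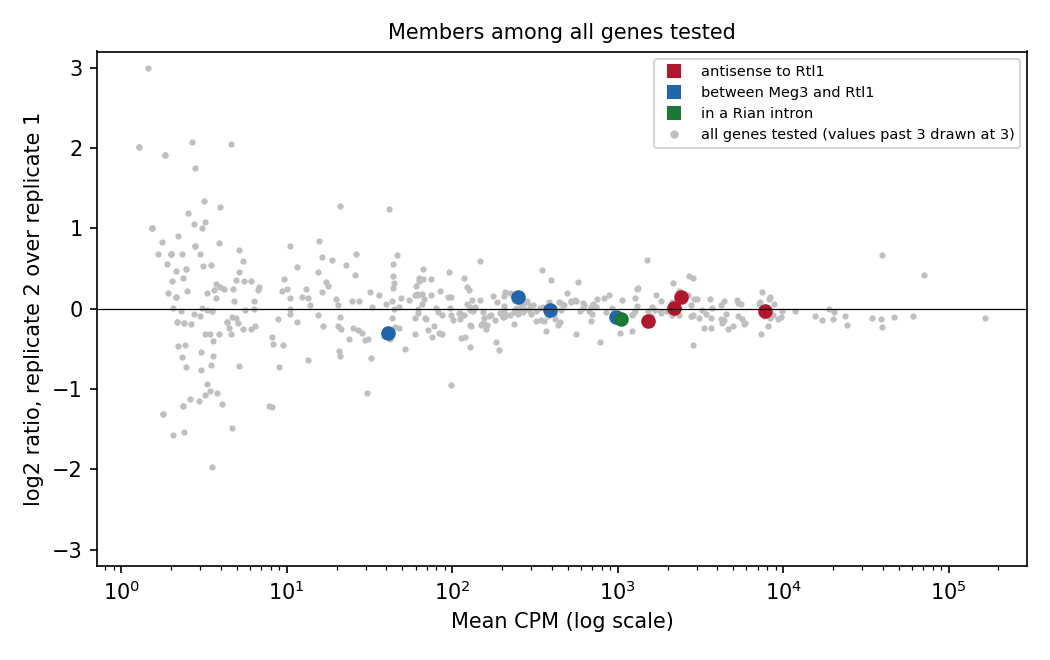
Log2 ratio of replicate 2 over replicate 1 (y) against mean CPM (x, log scale) for the 426 genes tested (grey) and the 9 members (coloured by location). The members lie within the spread of genes of like level, between -0.31 and 0.15.

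Markers of other cells moved between the same pools. The exact binomial test, which called 35.9% of all genes, is counted beside each list. Its share was larger at higher levels, with 117 called of the 208 genes whose mean reached 100 CPM. The endothelium list holds 1 gene, Mir126a, which had 25702 CPM in replicate 1 and 22600 in replicate 2 and was lower. Outside the list, Mir221 and Mir222, at log2 ratios of 0.15 and 0.14, did not pass. The blood list, with 5 of 6 symbols found and reads for all 5, summed to 652 and 502 CPM, with 4 of 5 tested genes lower and 0 higher. The mesenchyme and smooth muscle list, with 6 of 6 found, summed to 6623 and 5913, with 3 of 5 tested genes lower and 0 higher. The sums of these 3 lists were lower in replicate 2, as were Mir433, Mir370 and Mir337, and their part in those ratios was not tested. The choroid plexus and ciliated list summed to 5861 and 7518 CPM, with 4 of 4 genes higher. The hindbrain and neural list, with 12 of 13 found and all 12 with reads, summed to 102786 and 143962 CPM, mostly Mir10a and Mir10b, with 6 of 12 genes higher and 0 lower. Their part in the ratio of Mir431 was not tested. The hindbrain and neural list is a choice of symbols, so its count does not stand for all neural microRNAs. Outside it, calls went both ways. Lower were, for instance, Mir92b at a log2 ratio of -0.24, Mir153 at -0.19, Mir135b at -0.10, Mir139 at -0.07 and Mir149 at -0.05. Higher were Mir138-1 at 0.14, Mir138-2 at 0.12 and Mir132 at 0.11. These too are chosen examples. The pituitary and endocrine list stood at 2554 and 2546 CPM, with 1 of 4 genes higher. Mir122, for liver, had 35.6 and 57.0 CPM and was higher. Of the 5 striated muscle genes found, 4 had 0 reads, and Mir206 had 27.2 and 23.3 CPM and did not pass. Reads placed at several loci are counted for no gene. A low count or 0 reads in these lists therefore does not show that a microRNA was absent.

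Of the 11 other rows from Dlk1 to Mir379, 7 had reads and 4 had none in either library (Mir1906-1, Mir432, Gm23912 and Mir882). Mir770, in an exon of Meg3, was the highest, at 1688 and 1694 CPM, a level between those of Mir434 and Mir433 in both libraries. Mir341, in an intron of Rian, followed at 608 and 618 CPM. Mir673, just past the end of Meg3, had 95.7 and 97.3 CPM and Mir1188, in Rian, 10.7 and 10.3. Mir3070a had 10 and 18 reads and Mir3070b 2 and 2. Of the 6 rows tested, the exact binomial test called 0 higher and 1 lower in replicate 2, beside 15.3% and 20.7% of all genes tested. The row called lower was the Mir136/Mir3071 row at -0.20 (-0.29 to -0.11; adjusted p = 9.42e-05, exact binomial test).

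The Mir379 to Mir410 cluster, the larger group of the region, held 7.80% and 7.38% of the gene reads in 37 rows, 4.69 and 4.44 times the members' reads. It was led by Mir487b at 35821 and 33476 CPM, Mir369 at 9631 and 8884 and Mir382 at 8652 and 8056. Mir127 stood below these 3 and above all other rows of the cluster. The median tested row of the cluster had 294 CPM ± 4.80 (SD, n = 2) and the median member 1050 ± 56.4. These sets are unlike, since the members are a chosen part of their stretch and the cluster takes every tested row. Of the cluster's 30 tested rows, 1 was higher and 14 were lower in replicate 2, where the test called 15.3% and 20.7% of all genes. Among the 208 genes whose mean reached 100 CPM, it called 117 in either direction. The cluster's median log2 ratio was -0.09. The cluster's count of calls is given for the reported scaling only. Relative to the cluster, the members' summed reads rose by a log2 ratio of 0.08 (0.06 to 0.09, a normal interval for counting error), a value that does not depend on library scaling. It rests on 1 library on each side. Rows of the cluster that M21 places on the minus strand hold a further 38790 and 46004 reads on their opposite strand, and these are not in its sum.

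Among genes outside the region, the 2 nearest in level to each of the 3 highest members were found by Euclidean distance in log2(CPM + 1) over the 2 libraries. For Mir127 these were Mir135b (7898 and 7475 CPM, distance 0.0614) and Mir342 (7758 and 8546 CPM, 0.134). For Mir431 they were Mir128-1 (2145 and 2520 CPM, 0.0831) and Mir708 (2394 and 2296 CPM, 0.162), and for Mir434 they were Mir219a-2 (2041 and 2195 CPM, 0.0809) and Mir107 (2036 and 2017 CPM, 0.152). With 2 libraries of 1 tissue, this likeness is one of level alone. Levels leave out reads placed at several loci, and stretches shared with other loci were not searched for these genes outside the region.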

How the data were processed

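For each library the authors deposited gene read counts. Build mm10 and GENCODE M4 are named in the accompanying notes. The trimming, aligner and counter were not given in the sources used here. A table holds 3 counts per gene, and the count on the gene's own strand was used. No header names the columns, and the single-strand column with more reads was read as the own strand. Library sizes exclude the 4 rows that stand for no gene. Reads placed at several loci made up 35.4% and 34.2% of a library, unmapped reads 13.7% and 15.8%, and those outside genes 2.56% and 2.96%.

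Symbols and positions came from GENCODE M21 by identifier without version. The versions of Mir337, Mir540 and Mir127 differ from those in M21, so their counted boundaries may differ slightly. The series has no test between conditions. The libraries were compared with TMM factors from edgeR 4.0.16 (R 4.3.3) computed over the genes tested and an exact conditional binomial test. edgeR's quasi-likelihood test needs replicates on each side. Replicates are separate pools per the labels. The first run computed TMM factors over all rows. They were changed to the genes tested after those calls had been seen, to follow the processing used in an earlier analysis of these data, and the first setting is kept as an alternative. The other alternatives were total counts, DESeq2 1.42.0 size factors, both strands together, count minimums of 1 and 100, an assumed coefficient of variation, division by hairpin length, and leaving out each library. Counts were also simulated for this comparison, with counting error only and no spread between pools, and 419 genes were tested. Of genes changed 1.5-fold, 78.8% were called in the right direction, and of those changed 2-fold, 81.2%. Of unchanged genes, 1.79% were called. That share covers counting error and does not measure how often real pools differ without a change of condition. Scripts ran in Python 3.11.15 with scipy 1.17.1 and numpy 2.4.6.

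Every member was named by rule, with the other rows from Dlk1 to Mir379, the 3 highest of the Mir379 to Mir410 cluster, and the 2 genes nearest in level to each of the 3 highest members. The members and lists were chosen with earlier results of these data known.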

Additional observations from a re-analysis of the deposited data

Results flagged for a closer look

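Reads on the strand opposite to Mir337 numbered 4 in replicate 1 and 7 in replicate 2, above the 3 reads that a count of 0 allows. They drew attention because they lie outside the own-strand counts used for all levels. M21 annotates Mir3544 on that strand. No other member had a read there.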

How the results depend on the processing

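The 9 members kept their order in each library alone, and 7 kept their place when reads were divided by hairpin length. Their summed share of 1.66% became 0.776% of all reads of a library, 1.63% with both strands together and 1.71% with the Mir136/Mir3071 row, which was added after seeing the data. All 9 members share less than 20 nt with any microRNA gene at another locus, so leaving out members that share more left the share as it was. Genes that overlap a member, such as Mir3544 at Mir337, were not part of that search. The number of members higher in replicate 2 rose from 1 to 2 with total counts, with DESeq2 size factors, with TMM factors over all rows, with both strands together and with a minimum of 100 reads, each time by the addition of Mir665. The minimum of 100 reads, which left fewer genes to adjust over, also added Mir127. With it 4 members were lower and 6 were called in all. Of all genes tested, these settings called 35.0%, 34.5%, 34.5%, 37.3% and 53.0% in the order named, beside 35.9% in the reported setting. With an assumed coefficient of variation of 0.1 or 0.2, edgeR's exact test called 0 members higher and 0 lower, 0 in all in place of 4. It then called 1.41% and 0% of all genes tested. TMM factors over all rows were the setting run first, and the change to factors over the genes tested was made after its calls had been seen. That setting and DESeq2 size factors each called 78 genes higher and 69 lower, or 53.1% higher, where the reported setting called 65 and 88, or 42.5% higher. Total counts gave 71 and 78. The log2 ratio of the summed members was -0.018 as reported, -0.00067 with total counts, and turned to 0.014 with DESeq2 size factors and 0.0136 with TMM factors over all rows. Mir540 turned from -0.014 to 0.0027 with total counts, 0.0176 with DESeq2 size factors and 0.0170 with TMM factors over all rows. Mir127 turned from -0.025 to 0.0068 and 0.0062 with the last 2 of these, under which Mir337 did not pass. These shifts follow from the scaling factors alone, as the counts were the same. So does the addition of Mir665 with total counts, with DESeq2 size factors and with TMM factors over all rows. The cause of the other changes was not tested. No paired analysis was possible because the series has 1 group. Counting error limits Mir493 most, with 178 and 179 reads.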

Other observations

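Of the 6 rows from Dlk1 to Dio3 that M21 places on the minus strand, 4 had reads on the opposite strand in both libraries. Gm24321 had 0 own-strand reads in each library and 19498 and 23262 opposite ones, and Gm25252 had 0 own-strand reads and 15021 and 17909 opposite ones. Gm25750 had 0 own-strand and 2476 and 2697 opposite reads, and Mir299b had 2 and 10 own-strand and 1795 and 2136 opposite reads. The Mir136/Mir3071 row had the reverse pattern, with 1824 and 1973 own-strand and 0 opposite reads, and had the most own-strand reads of the 6. Mir1247, beside Dio3, had 37 and 34 own-strand and 0 opposite reads.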
